A study of Mus musculus with 9 samples.

Results

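Gper1, the membrane receptor for oestrogen, was described with the nuclear oestrogen receptors Esr1 and Esr2 and the oestrogen-related receptors Esrra, Esrrb and Esrrg in polyadenylated RNA of mouse tissue labelled as hippocampus. They were picked by gene symbol, with earlier results of these libraries in view, and all 6 were found among the 54513 genes of the deposited table. The 9 libraries came from 3 groups of 3 mice, and by the labels all mice were on a high-fat diet for 12 weeks. In the Trp group the amino acid tryptophan was added to that diet at 0.5% by weight. In the IPA group indole-3-propionic acid (IPA), which gut bacteria make from tryptophan, was given by gavage each day at 100 mg per kg body weight. The HFD group had the high-fat diet alone, and none of the libraries came from mice on ordinary chow. Strain and age were not given in the sources used here.

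The columns of Trp, IPA and HFD carry the codes HOB, HEB and WTB in the table. The labels pair each code with a sample and explain none of them. Whether these columns hold the mice of the diet study or those of another experiment, such as one of genotypes, is not settled by the labels or the table, and from the values below these possibilities cannot be told apart. The groups are called here by their labels, and a difference between them is a difference between the libraries so labelled. Total counts per library ran from 40621084 to 50938746. Xist, made from the inactive X chromosome of females, had 4365 to 7267 counts per library, and Uty, Kdm5d, Ddx3y and Eif2s3y of the Y chromosome had none, while no oestrous stage was given. HFD 3 stood apart in its markers of neighbouring tissue, oligodendrocytes and blood. Its 15 striatal markers summed to 733 CPM (counts scaled to a common library size), against 1520 to 3260 CPM in the other 8 libraries. Its 15 markers of thalamus and habenula summed to 783 CPM, against 235 to 489 in the others. Its 12 oligodendrocyte markers summed to 16300 CPM, against 8240 to 10800 in the others. The 10 blood markers summed to 560 to 647 CPM in Trp, 556 to 684 in IPA and 910 to 2510 in HFD, with HFD 3 the highest, and microglial markers to 414 to 533 CPM in Trp, 299 to 316 in IPA and 278 to 302 in HFD. The part of these cells in the results was not tested.

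Oestrogens act through 2 kinds of receptor. Esr1 and Esr2 encode the nuclear receptors ER-alpha and ER-beta, transcription factors that bind oestradiol and then DNA at oestrogen response elements. Gper1, formerly Gpr30, encodes a G protein-coupled receptor of cell membranes, through which oestrogens have been reported to raise cyclic AMP, to release ligands of the epidermal growth factor receptor and to induce genes such as Fos. Esrra, Esrrb and Esrrg encode the oestrogen-related receptors ERR-alpha, ERR-beta and ERR-gamma, which resemble ER-alpha in sequence but bind no natural oestrogen; with the coactivators PGC-1alpha and PGC-1beta they drive genes of mitochondrial energy metabolism. In the brain, oestrogen signalling is studied for its effects on hippocampal synapses and memory.

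The 250 bases before a RefSeq transcript start are shown for Gper1, the gene whose libraries separated by group, and for Esrra, the most abundant of the 6, because the levels of the 2 genes lay far apart. They are RefSeq sequences of build GRCm38.p6, given 5′ to 3′ on the strand of the gene, with CG dinucleotides in capitals. That of Gper1 is chr5:139422929-139423178 on the plus strand and that of Esrra is chr19:6921809-6922058 on the minus strand. RefSeq lets the gene begin further upstream than these starts, so that 29 bases of the Gper1 stretch and 240 of the Esrra stretch lie inside the gene's own span.
Gper1: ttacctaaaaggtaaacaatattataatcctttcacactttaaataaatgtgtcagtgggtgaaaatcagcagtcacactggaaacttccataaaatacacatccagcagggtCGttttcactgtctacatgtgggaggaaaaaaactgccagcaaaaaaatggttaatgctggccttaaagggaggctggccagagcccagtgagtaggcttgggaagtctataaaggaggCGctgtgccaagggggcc
Esrra: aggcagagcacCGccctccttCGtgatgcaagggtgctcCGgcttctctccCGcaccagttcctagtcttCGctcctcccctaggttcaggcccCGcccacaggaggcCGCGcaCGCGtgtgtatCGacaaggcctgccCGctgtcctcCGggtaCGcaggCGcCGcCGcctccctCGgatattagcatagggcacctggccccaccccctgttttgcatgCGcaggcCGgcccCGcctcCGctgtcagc
The Gper1 sequence held 2 CG dinucleotides at 44.0% G and C, and that of Esrra held 22 at 68.4%. Over all 32851 RefSeq promoters the medians were 6 CG dinucleotides and 52.4%. The start of Esr2 held 12 at 56.4%, and those of Esrrg held 9 to 22 at 41.6% to 63.6%. Those of Esr1 held 4 and 7 at 47.6% and 59.6%, and those of Esrrb 6 and 3 at 60.8% and 52.0%. A link between these sequences and the levels of the genes was not tested. All 6 genes had an entry, with 11 starts in all. The oestrogen response element, GGTCA followed after 3 bases by its reverse complement, was searched on both strands. It was in none of the 11 sequences and in 0.0639% of all promoters of this length. The ERR element TCAAGGTCA, searched likewise, was in none of the 11 and in 0.387% of all, and the half-site AGGTCA, which it contains, was in none of the 11 and in 14.0% of all.

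The receptors differed in abundance by orders of magnitude. FPKM, which divide fragment numbers by gene length and sequencing depth, allow levels of different genes to be compared. Esrra was the highest at 23.2 ± 2.48 FPKM in Trp, 21.9 ± 1.67 in IPA and 22.5 ± 2.20 in HFD (SD, n = 3 each). Esrrg came next at 4.79 ± 1.07 FPKM in Trp, 5.13 ± 0.322 in IPA and 4.04 ± 0.570 in HFD. Both were above the other 4 receptors in every library.

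Below them the order depended on the group, because of Gper1. In HFD, Gper1 stood at 0.651 ± 0.0399 FPKM, Esr1 at 0.613 ± 0.218 and Esrrb at 0.446 ± 0.118 (SD, n = 3), where the range of Esr1 overlapped those of both others and Gper1 lay above Esrrb in every library. In IPA, Esr1 (0.561 ± 0.152 FPKM) and Esrrb (0.542 ± 0.0780) were alike within their spread and Gper1 followed at 0.261 ± 0.0551. In Trp, Gper1 was the lowest of the 6 at 0.0182 ± 0.0162 FPKM, under Esr2 at 0.0739 ± 0.0498, and the ranges of those 2 genes in Trp did not overlap. Esr2 was the lowest in IPA at 0.0277 ± 0.0130 and in HFD at 0.0405 ± 0.0124 FPKM.

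**Figure D1:**
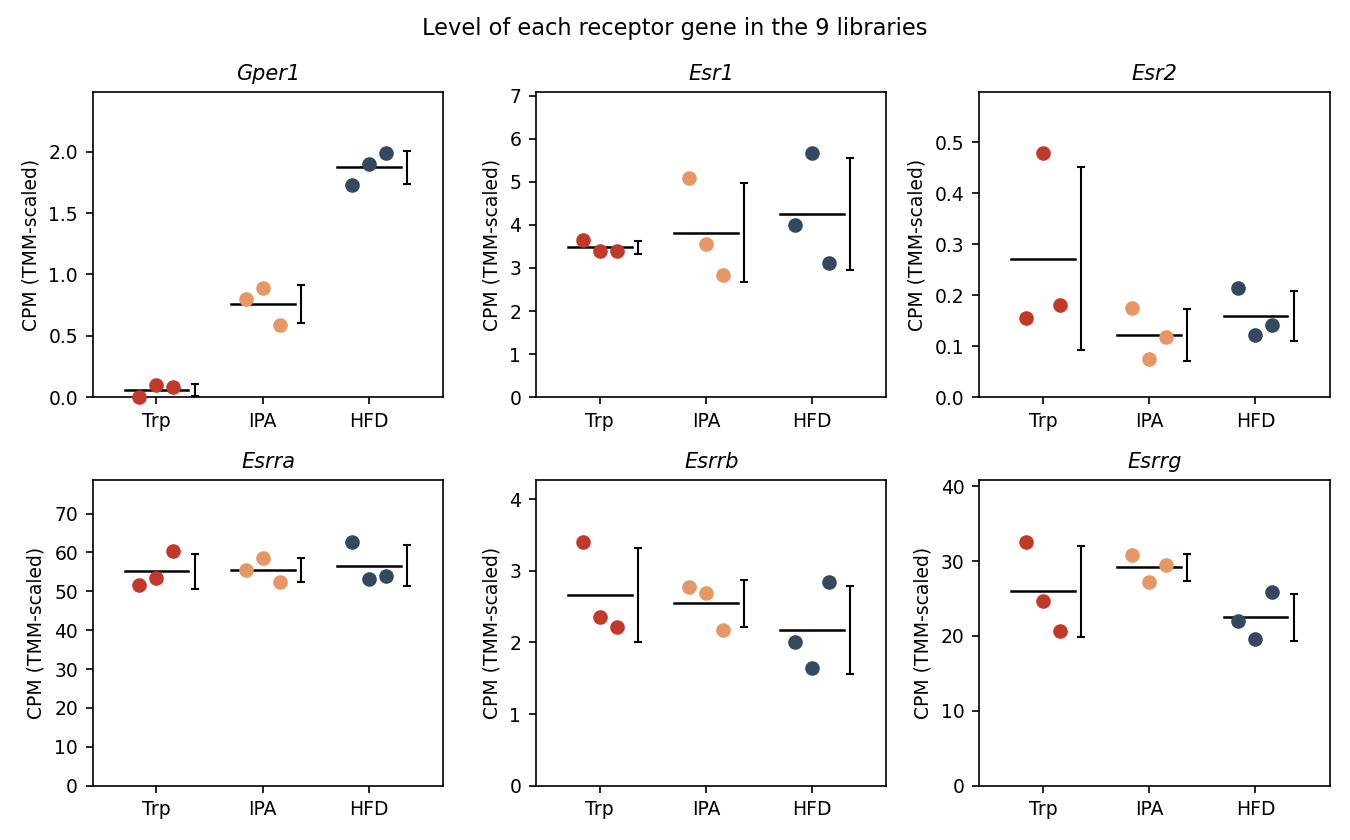
Level of each of the 6 receptor genes in CPM scaled to TMM library size, with 1 point per library, the group mean as a line and the SD (n = 3) as a bar, in the Trp, IPA and HFD groups; each panel has its own axis from 0. The 3 groups separate for Gper1, at 0 to 0.0958 CPM in Trp, 0.591 to 0.888 in IPA and 1.73 to 1.99 in HFD, and overlap in Esr1, Esr2, Esrra and Esrrb.

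Gper1, the membrane oestrogen receptor, was near absent in the libraries labelled Trp. With the libraries of each group in the order 1 to 3, it gave 0, 4 and 4 counts in Trp, 32, 36 and 25 counts in IPA, and 81, 94 and 84 counts in HFD. In CPM these were 0, 0.0958 and 0.0806 in Trp, 0.801, 0.888 and 0.591 in IPA, and 1.73, 1.90 and 1.99 in HFD. The groups did not overlap. All Trp libraries were below all IPA libraries, which held for 5.55% of all genes tested, and below all HFD libraries, which held for 7.43%. All IPA libraries were below all HFD libraries, which held for 8.01%. These are the columns coded HOB, HEB and WTB, and whether these steps of Gper1 go with the diets or with another difference between the mice, such as their genotype, cannot be told apart. In the deposited FPKM the order was the same, at 0 to 0.031 in Trp, 0.201 to 0.309 in IPA and 0.606 to 0.681 in HFD. The zero of Trp 1 allows up to 0.0584 CPM, which is 3 counts in that library.

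Summed over 3 libraries and scaled to their size, Gper1 in Trp was 2.99% of its level in HFD (8 against 259 counts; exact 95% interval 1.28% to 5.99%). In IPA it was 40.5% of HFD (93 against 259 counts; 31.6% to 51.5%), and in Trp it was 7.40% of IPA (8 against 93 counts; 3.10% to 15.2%). These intervals cover counting error only. The mean over mice was 0.0588 ± 0.0515 CPM in Trp, 0.760 ± 0.153 in IPA and 1.88 ± 0.132 in HFD (SD, n = 3 each). In bulk tissue, fewer cells of a type and less RNA per cell cannot be told apart.

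The fitted log2 fold change of Gper1 was -4.98 (SE 0.52, 95% interval -6.11 to -3.86) for Trp against HFD, a 31.6-fold lower level, and -4.94 without HFD 3. It was -1.30 (SE 0.38, -2.13 to -0.47) for IPA against HFD, and -3.68 (SE 0.54, -4.85 to -2.51) for Trp against IPA. Comparisons that share a group are not independent of each other. Since Gper1 was chosen with these values known, they are given as a description, without a test. Gper1 was the 1 of the 5 receptors fitted that was among the genes called for Trp against HFD in edgeR's quasi-likelihood test at a Benjamini-Hochberg adjusted p under 0.05, where 64 of 18690 genes (0.342%) were called, 24 of them lower (0.128%), and 11.3% had an unadjusted p under 0.05. As that contrast was known when the genes were chosen, nothing is read from the count. The same edgeR test called none of the 5 for IPA against HFD, where it called 1 gene (0.00535%, with 10.4% at an unadjusted p under 0.05), nor for Trp against IPA, where it called 0 (0.0%, with 840 genes or 4.49% at an unadjusted p under 0.05). DESeq2 called 309 genes for Trp against HFD, 168 genes for IPA against HFD and 15 genes for Trp against IPA, with Gper1 among them each time. The authors' deposited table called Gper1 down in both comparisons it holds, among 65 genes called of 15337 for Trp against HFD (0.424%) and 46 of 15236 for IPA against HFD (0.302%). In the authors' deposited table its log2 fold change of -5.05 was the lowest of all genes compared for Trp against HFD, and for IPA against HFD it was -1.30.

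**Figure D2:**
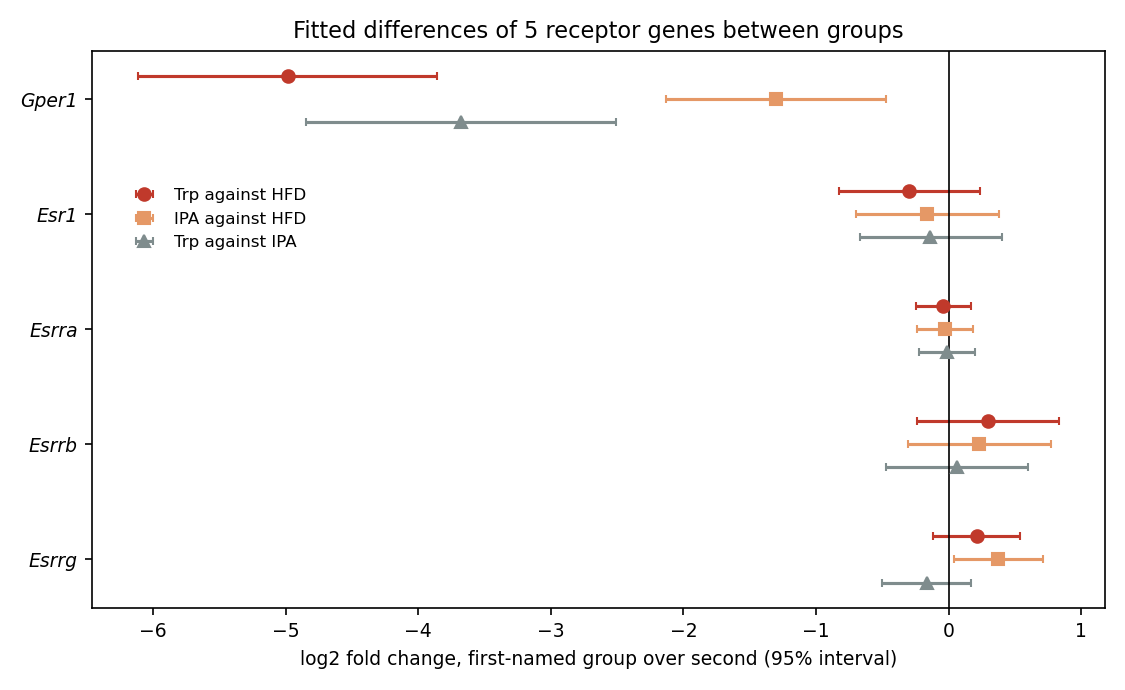
Fitted log2 fold changes with 95% intervals of the 5 receptor genes that passed the filter on low counts, for Trp against HFD (circles), IPA against HFD (squares) and Trp against IPA (triangles), first-named group over second. Gper1 lies at -4.98, -1.30 and -3.68, while the intervals of Esr1, Esrra and Esrrb include 0 in every comparison.

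A stepped order, with every Trp library below every IPA library and every IPA library below every HFD library, was found in 40 of the 18690 genes (0.214%), and the reverse order in 56 (0.3%). Of those 40, 3 had a Trp mean under 10% of the HFD mean, a limit chosen after the values were seen. Gper1 was the highest of the 3 in HFD by CPM, which is not scaled to gene length. In FPKM Gm49395 was above it in every HFD library, at 0.919, 1.91 and 1.13 against 0.606, 0.667 and 0.681. Apol7a, an apolipoprotein L gene, gave 0 counts in each Trp library, 3, 4 and 7 counts in IPA and 16, 12 and 12 counts in HFD. The predicted gene Gm49395 gave 4, 2 and 1 counts in Trp, 5, 4 and 9 in IPA and 32, 68 and 37 in HFD. Other genes of that order had smaller differences, such as Slc16a1, the lactate transporter MCT1, at 28.2 CPM in Trp, 31.9 in IPA and 51.3 in HFD. Across the 9 libraries, log2 CPM of Phf21b (Pearson r = 0.942), Dennd5a (0.920) and Ppfibp1 (0.919) followed Gper1 most closely among 11921 candidate genes. These r values include the differences between the 3 groups and describe 9 libraries, and Gper1 was under the level for which this listing was planned.

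The table places Gper1 on chromosome 5 at 139408906 to 139413555 on the plus strand, a span of 4650 bases, in coordinates whose build is not settled, since RefSeq GRCm38.p6 starts the gene at 139423150. No exon of another gene overlaps those of Gper1 in the GENCODE M21 annotation. The gene lies within the span of 3110082I17Rik on the other strand, which stood at 6.86 CPM in Trp, 7.49 in IPA and 6.19 in HFD. C130050O18Rik, 7.5 kb before Gper1 on the same strand, was low at 0.357 CPM in Trp, 0.283 in IPA and 0.211 in HFD. Its log2 fold change for Trp against HFD was 0.74 (SE 0.66). Gpr146, an orphan receptor gene 26.7 kb before Gper1, had 19.0 CPM in Trp, 17.2 in IPA and 17.4 in HFD. Zfand2a, 43.4 kb after Gper1, had 66.4 CPM in Trp, 67.5 in IPA and 74.1 in HFD. Of 186 other genes tested within 5 Mb, 0 were called in edgeR's quasi-likelihood test for Trp against HFD, with 20 at an unadjusted p under 0.05. Over all genes 0.342% were called and 11.3% had such a p. For IPA against HFD 0 were called and 17 had such a p, beside 0.00535% and 10.4% of all genes. DESeq2 called 6330403L08Rik in both comparisons and Zfp316 for IPA against HFD. Of all 18690 genes it called 309 for Trp and 168 for IPA against HFD. The median log2 fold change of the 186 was -0.01 for Trp and -0.06 for IPA.

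**Figure D3:**
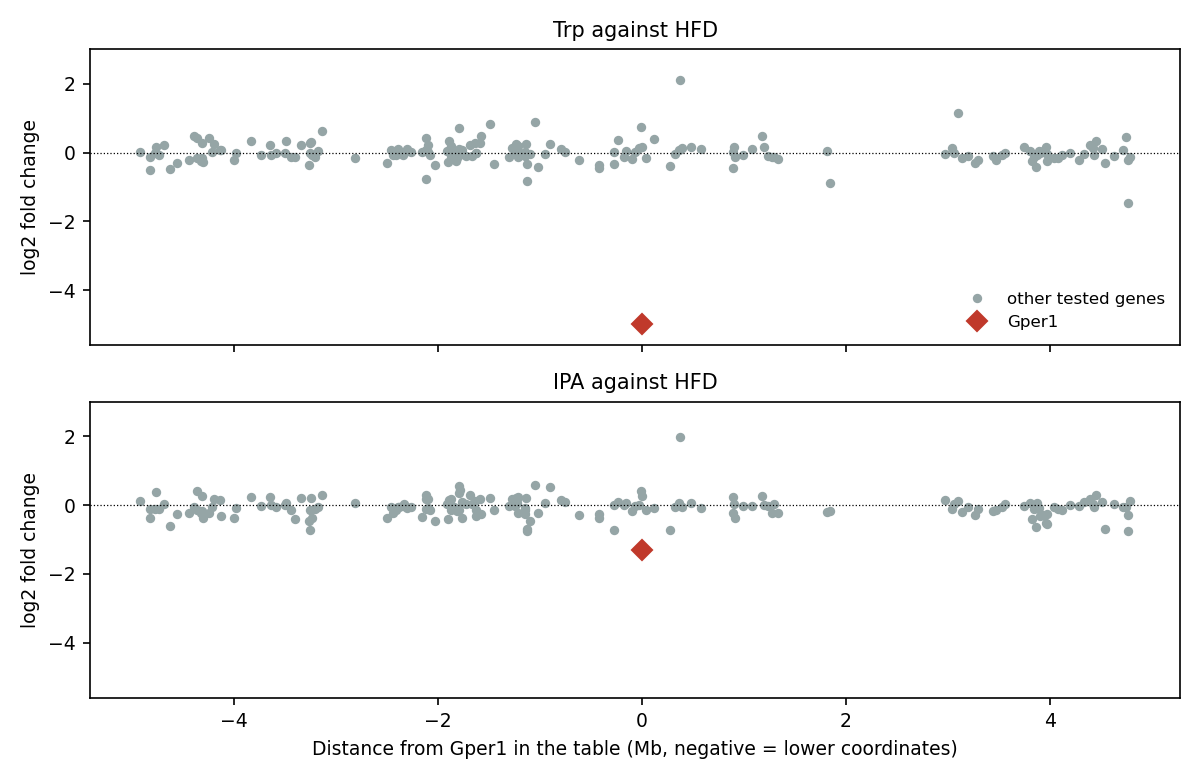
Log2 fold change of the tested genes within 5 Mb of Gper1 (grey) and of Gper1 (red), by distance from Gper1 in Mb in the deposited table, for Trp against HFD above and IPA against HFD below. For Trp against HFD the neighbours lie between -1.47 and 2.12 and Gper1 at -4.98; for IPA against HFD they lie between -0.76 and 1.99 and Gper1 at -1.30.

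Gper1 transcripts have been described in neurons, glia and vessel walls. The 16 endothelial markers summed to 421 to 466 CPM in Trp, 405 to 407 in IPA and 423 to 504 in HFD. The 14 mural cell markers, of pericytes and smooth muscle, summed to 155 to 205 CPM in Trp, 141 to 163 in IPA and 180 to 235 in HFD. None of these 30 markers was at 0 in all libraries. Both sums overlapped between Trp and HFD, and in IPA both lay below every HFD library. The part of vessel cells in the Gper1 values of Trp and IPA was not tested. Of the 18 neuronal markers of hippocampal CA fields and dentate gyrus, none was at 0 in all libraries, and their sum was 641 to 811 CPM in Trp, 699 to 742 in IPA and 696 to 912 in HFD.

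The classical oestrogen receptors were low and did not separate the groups. Esr1, encoding ER-alpha, gave 3.64, 3.40 and 3.39 CPM in Trp, 5.08, 3.55 and 2.84 CPM in IPA, and 4.00, 5.67 and 3.11 CPM in HFD. The 3 ranges overlapped, and Trp was the tightest of them with an SD of 0.145 CPM, against 1.15 in IPA and 1.30 in HFD. For Trp against HFD the fitted log2 difference of Esr1 was -0.30 (SE 0.25), with a 95% interval of -0.83 to 0.24. For IPA against HFD it was -0.16 (SE 0.25, -0.70 to 0.38), and for Trp against IPA -0.14 (-0.67 to 0.40). Intervals this wide do not show that Esr1 was equal in the groups.

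Esr2, encoding ER-beta, was at the limit of detection. It gave 8, 20 and 9 counts in Trp, 7, 3 and 5 in IPA, and 10, 6 and 6 in HFD, too few to pass the filter on low counts, so it was not fitted. Trp 2 was highest at 0.479 CPM, against 0.074 to 0.214 CPM in the other 8 libraries. No difference is read from counts this low.

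Among the oestrogen-related receptors, Esrra was nearly level. ERR-alpha, which it encodes, is the widely expressed member that works with PGC-1 coactivators in tissues of high energy demand. It stood at 51.6, 53.5 and 60.3 CPM in Trp, 55.4, 58.5 and 52.4 in IPA, and 62.8, 53.1 and 54.0 in HFD. The ranges overlapped throughout. Its fitted difference on the log2 scale was -0.04 (95% interval -0.25 to 0.17) for Trp against HFD, -0.03 (-0.24 to 0.18) for IPA against HFD and -0.01 (-0.22 to 0.20) for Trp against IPA, the narrowest intervals of the 5 receptors fitted. In GENCODE M21 its exons overlap those of Trmt112 on the other strand and of Mir6990, and without strand marking reads there cannot be assigned.

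Esrrg, encoding ERR-gamma, which in mouse neurons has been tied to oxidative metabolism, was higher in all IPA libraries than in all HFD libraries. It stood at 32.6, 24.6 and 20.7 CPM in Trp, 30.8, 27.2 and 29.4 in IPA, and 22.0, 19.6 and 25.8 in HFD. Every IPA library was above every HFD library, which was also so for 7.19% of all genes tested, and Trp overlapped both. The fitted log2 difference was 0.37 (SE 0.15, 95% interval 0.04 to 0.71) for IPA against HFD and 0.21 (SE 0.15, -0.12 to 0.54) for Trp against HFD, and neither was among the genes called. The Trp value rests on Trp 1: without that library it was 0.01.

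Esrrb, encoding ERR-beta, a factor of embryonic stem cells and of the inner ear, was low. It stood at 3.41, 2.35 and 2.22 CPM in Trp, 2.78, 2.69 and 2.17 in IPA, and 2.01, 1.65 and 2.85 in HFD. The ranges overlapped, with Trp 1 highest, as it was for Esrrg, and HFD 2 lowest, also as for Esrrg. The log2 fold change was 0.30 (SE 0.25, -0.24 to 0.83) for Trp against HFD and 0.23 (SE 0.25, -0.31 to 0.77) for IPA against HFD. The difference for Trp was 0.07 without Trp 1 and 0.54 without HFD 3. Trp 1 also had the highest sum of 12 choroid plexus markers, 2060 CPM, against 226 and 899 CPM in the other Trp libraries, 618 to 1710 in IPA and 322 to 1140 in HFD. The part of that tissue in the Esrrb and Esrrg values was not tested, and 12 markers of parvalbumin interneurons, a neuron type rich in ERR-gamma, summed to 1780 to 1890 CPM in Trp, 1790 to 1940 in IPA and 1720 to 1910 in HFD.

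By the rule for likeness, log2 CPM over the 9 libraries was nearest to Esr1 for Jmjd8 (Pearson r = 0.927), Tomm34 (0.918) and Zswim1 (0.900). It was nearest to Esrra for Cdc34 (0.942), Ptov1 (0.938) and Fam53a (0.933), to Esrrb for Pdcd5 (0.965), St3gal4 (0.946) and Plekhg3 (0.939), and to Esrrg for Ints12 (0.976), Atxn3 (0.964) and Yipf6 (0.963). With 9 libraries and 11921 candidates, values of this size describe these libraries only.

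Genes that act with these receptors were grouped in 7 lists, some of which share a gene, and read from the same fit. The lists were chosen with earlier results of these libraries known, so their calls and p-values are given as a description. For Trp against HFD, edgeR's quasi-likelihood test called Fos, Egr1 and Nr1d1, all lower in Trp, and 0 genes of the lists as higher, beside 0.342% of all genes called. DESeq2, which called 309 of all 18690 genes, also called Adcy8, Cav1 and Nr4a3 as lower and Lrpprc and Uqcrc2 as higher. In the IPA against HFD and Trp against IPA comparisons 0 were called by edgeR's quasi-likelihood test, beside 0.00535% and 0.0% of all genes. The lists, of 15 to 45 tested genes, had 0 to 8 and 0 to 4 genes at an unadjusted p under 0.05. Over all genes 10.4% and 4.49% had such a p. For Trp against IPA the smallest adjusted p of any list was 0.987, and DESeq2 called 0. For IPA against HFD DESeq2 called Fos, Adcy8 and Nr1d1, beside 168 of all 18690 genes.

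Oestrogen synthesis and metabolism had 32 genes, 21 of them tested, with 0 called for Trp against HFD in edgeR's quasi-likelihood test, 0 by DESeq2 and 2 at an unadjusted p under 0.05, beside 0.342% called and 11.3% at such a p over all genes. Their median log2 fold change was 0.07 for Trp and 0.03 for IPA against HFD, beside 0.00 and -0.01 over all genes. Nearest to the threshold for Trp was Hsd17b4, of peroxisomal fatty acid and oestradiol oxidation, at 0.24 (SE 0.09, adjusted p = 0.315). Por, the reductase that feeds steroidogenic cytochromes P450, stood at 0.24 for IPA (adjusted p = 0.461).

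Cyp19a1, the aromatase that makes oestradiol, was singled out after its values were seen. It gave 16, 18 and 10 counts in Trp, 14, 0 and 0 in IPA, and 0, 5 and 5 in HFD. All Trp libraries were above all HFD libraries, as in 8.06% of all genes tested, and IPA 1 lay among the Trp values. The log2 fold change was 2.07 (SE 1.12, 95% interval -0.40 to 4.53, edgeR adjusted p = 0.535), so a difference did not pass at this depth. Hypothalamus, a site of aromatase in the mouse brain, was marked by 18 genes whose sum was 50.2, 141 and 212 CPM in Trp, 111, 42.5 and 30.4 in IPA, and 63.8, 36.2 and 110 in HFD. IPA 1 was the highest of its group in both, while in Trp the library with the highest sum, Trp 3, had the fewest Cyp19a1 counts. The part of hypothalamic tissue in the Cyp19a1 counts was not tested. Star, which brings cholesterol into mitochondria, was at 5.93 CPM in Trp, 6.04 in IPA and 5.83 in HFD, and Cyp17a1, of androgen synthesis, gave 0 to 3 counts per library.

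Oestrogen-responsive genes numbered 30, with 27 tested, 0 called and 6 at an unadjusted p under 0.05 for Trp against HFD in edgeR's quasi-likelihood test, and 1 called by DESeq2, Cav1. Of all genes 0.342% were called by edgeR and 11.3% had such a p, and DESeq2 called 309 of 18690. The median log2 fold change was 0.08 for Trp and 0.07 for IPA. Greb1, a cofactor and target of ER-alpha, stood at 0.994, 0.886 and 0.726 CPM in Trp, 0.651, 0.616 and 0.473 in IPA, and 0.578, 0.242 and 0.214 in HFD. All Trp libraries were above all IPA libraries, as in 5.61% of all genes tested, and above all HFD libraries, as in 8.06%. IPA and HFD overlapped for Greb1. Its log2 fold change of 1.32 (SE 0.40) for Trp against HFD did not pass (adjusted p = 0.242). Cav1, the scaffold protein of caveolae, stood at -0.64 (SE 0.16, adjusted p = 0.135) for Trp and -0.51 (SE 0.16, adjusted p = 0.328) for IPA, and was highest in HFD 3 at 25.7 CPM. Pgr, the progesterone receptor and a classical oestrogen target, was at 28.4 CPM in Trp, 29.9 in IPA and 25.7 in HFD, with log2 fold changes of 0.14 (adjusted p = 0.697) and 0.22 (adjusted p = 0.513) against HFD.

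Genes of GPER1 signalling, its G protein subunits, adenylyl cyclases, kinases and induced genes, numbered 37, all tested. For Trp against HFD 2 of them fell and 0 rose in edgeR's quasi-likelihood test, with 7 at an unadjusted p under 0.05, beside 0.342% and 11.3% of all genes. DESeq2, which called 309 of all 18690 genes, called those 2 and Adcy8. The median log2 fold change of the list was -0.03. Fos, an immediate early gene whose protein pairs with Jun, fell to 8.63, 9.74 and 10.5 CPM in Trp, with 8.11, 12.5 and 11.2 CPM in IPA, against 33.9, 32.2 and 19.0 CPM in HFD. The Trp and IPA values lay together, below every HFD value, as in 7.43% of all genes tested for Trp and 8.01% for IPA. The log2 fold change of Fos was -1.56 (SE 0.22, edgeR adjusted p = 0.0207) for Trp and -1.42 (SE 0.22, adjusted p = 0.134) for IPA. The call for Trp ended without Trp 1 (adjusted p = 0.101), Trp 2 (0.126), HFD 1 (0.0559) or HFD 2 (0.0591), and it ended with a replicate block (0.0551) and with the 6 libraries alone (0.0629).

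Egr1, a zinc finger transcription factor induced with Fos, fell to 129, 137 and 132 CPM in Trp, with 160, 191 and 194 CPM in IPA, against 231, 298 and 182 CPM in HFD. All Trp libraries were below all IPA libraries, as in 5.55% of all genes tested, and below all HFD libraries, as in 7.43%. IPA overlapped HFD for Egr1. Its log2 fold change for Trp against HFD was -0.84 (SE 0.15, edgeR adjusted p = 0.0415), and it passed under 4 of 17 alternatives, with the call lost whenever 1 library other than HFD 3 was left out (adjusted p = 0.0609 to 0.2). Adcy8, a calcium-stimulated adenylyl cyclase, stood at -0.55 for Trp (SE 0.15, edgeR adjusted p = 0.204) and -0.60 for IPA (SE 0.15, adjusted p = 0.251). Fos and Egr1 respond to neuronal activity and to handling as well as to receptors, and nothing in the labels records either.

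**Figure D4:**
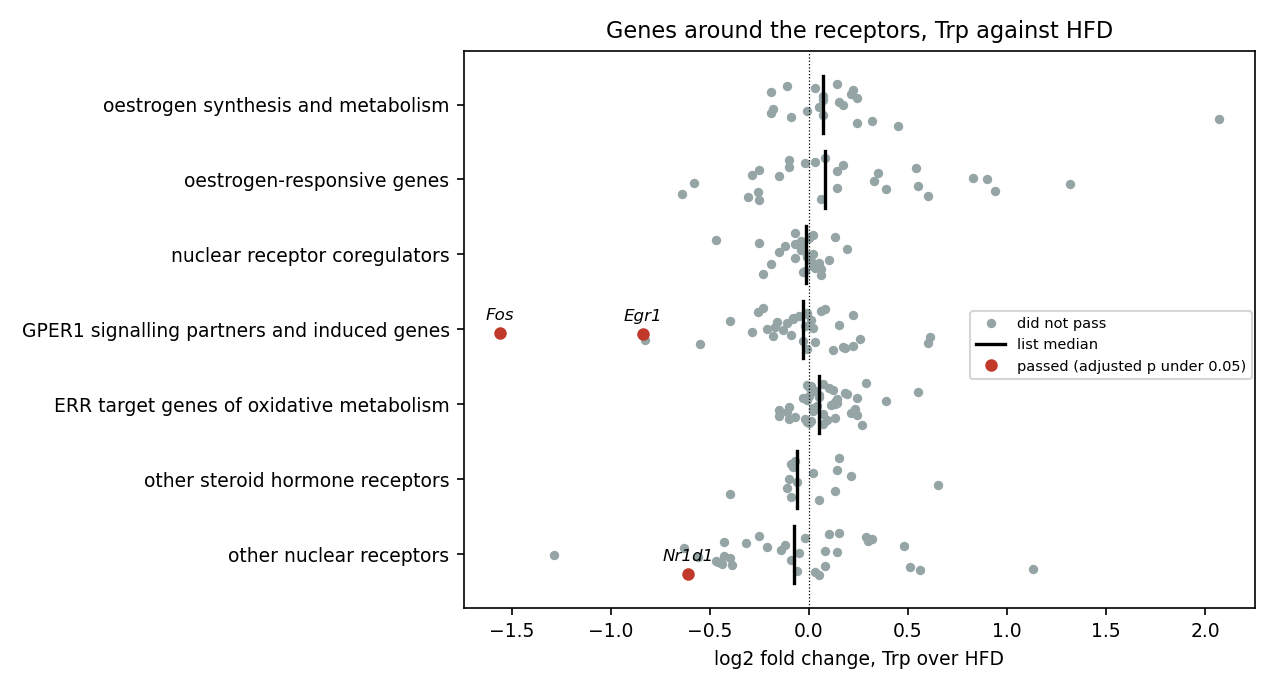
Log2 fold change of Trp over HFD for each tested gene (point) of 7 lists around the receptors, with the list median as a black bar and genes that passed in red. Fos at -1.56, Egr1 at -0.84 and Nr1d1 at -0.61 passed, and the medians lie between -0.07 and 0.08.

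Nuclear receptor coregulators, through which ER and ERR proteins act, had 30 genes, 28 of them tested. For Trp against HFD 0 were called in edgeR's quasi-likelihood test and 2 had an unadjusted p under 0.05, beside 0.342% and 11.3% of all genes. DESeq2, which called 309 of all 18690 genes, called 0 of them. Crebbp, the acetyltransferase CBP, stood at -0.23 for Trp (SE 0.09, adjusted p = 0.339) and -0.18 for IPA (adjusted p = 0.505). Ncoa2, a p160 coactivator, stood at -0.19 for Trp (adjusted p = 0.436) and Pprc1, a PGC-1 relative, at -0.21 for IPA (adjusted p = 0.572). Ppargc1a, encoding PGC-1alpha, was at 36.2 CPM in Trp, 40.5 in IPA and 39.4 in HFD.

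Target genes of the ERR proteins in oxidative metabolism had 46 members, 45 tested. For Trp against HFD 0 were called in edgeR's quasi-likelihood test and 5 had an unadjusted p under 0.05, beside 0.342% and 11.3% of all genes. DESeq2, which called 309 of all 18690 genes, called Lrpprc and Uqcrc2. The median log2 fold change was 0.05 for Trp and 0.04 for IPA. Lrpprc, which stabilises mitochondrial messenger RNA, was at 0.39 (SE 0.10, adjusted p = 0.18) for Trp. Uqcrc2, a core subunit of respiratory complex III, was at 0.29 (SE 0.08, adjusted p = 0.219) for Trp and 0.24 (adjusted p = 0.39) for IPA, and Ndufs1, of complex I, at 0.20 (adjusted p = 0.466) for IPA.

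The other receptors for steroids had 16 genes, 15 of them tested. For Trp against HFD 0 were called in edgeR's quasi-likelihood test and 1 had an unadjusted p under 0.05, beside 0.342% and 11.3% of all genes. DESeq2 called 0 of them, beside 309 of all 18690 genes. Paqr5, a membrane progestin receptor, was at 4.66 CPM in Trp and 4.64 in IPA, against 2.96 in HFD, a log2 fold change of 0.65 (SE 0.25) for each (adjusted p = 0.336 for Trp and 0.418 for IPA). Of 44 other nuclear receptors, 34 were tested, 1 fell and 0 rose for Trp against HFD in edgeR's quasi-likelihood test, with 10 at an unadjusted p under 0.05, beside 0.342% and 11.3% of all genes. DESeq2, which called 309 of all 18690 genes, called that gene and Nr4a3. Nr4a3, an activity-induced orphan receptor, stood at -1.29 (SE 0.31, edgeR adjusted p = 0.2). The gene that fell in edgeR's test was Nr1d1, the haem-binding clock repressor REV-ERB-alpha, at 49.8, 49.8 and 55.0 CPM in Trp, 50.4, 56.6 and 61.7 in IPA, and 86.0, 81.9 and 67.3 in HFD. All Trp libraries were below all HFD libraries, as in 7.43% of all genes tested, and so were all IPA libraries, as in 8.01%. The log2 fold change of Nr1d1 was -0.61 (SE 0.11, edgeR adjusted p = 0.0378) for Trp and -0.48 (SE 0.11, adjusted p = 0.2) for IPA. The call for Trp held in 5 of 17 alternatives, and of the 9 libraries left out in turn it remained without Trp 3 (adjusted p = 0.0473) or HFD 3 (0.00278).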

How the data were processed

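Polyadenylated RNA of 9 mouse libraries was used, 3 mice a group per the series' design text. Poly(A) selection with oligo(dT) and random-primed synthesis are described in the labels' protocols, which mention no strand-specific step. StringTie 2.1.3b and mm10 are named in the submitters' processing notes. Which aligner, counter and annotation release were used is not given in the sources used here. Per the file headers, the authors deposited whole-number counts and FPKM per gene and library. They also deposited log2 fold changes and calls of their own comparisons. All library columns were matched to samples through the labels, with 0 left over.

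Genes were kept by filterByExpr of edgeR 4.0.16 (R 4.3.3; minimum count 10), leaving 18690, scaled by TMM and fitted with the robust quasi-likelihood model over all 9 libraries, 1 mean per group. Tests were two-sided with Benjamini-Hochberg adjustment over all genes, and genes passed at adjusted p under 0.05. CPM are counts over TMM-scaled library sizes. The ratios of summed counts have exact conditional binomial intervals. For correlations, 2 counts were added as a prior before log2 CPM. With 3 mice a group, no exact permutation p can be under 0.1.

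The 6 receptors and the 7 gene lists were chosen with earlier results of these data known. Genes named are the 6 receptors, the list genes called or else the 2 with the smallest p (some shown by example, and some not reported here), and the 3 genes most correlated with each receptor of at least 0.5 mean FPKM, taken from genes of at least 1 mean FPKM. The region around Gper1, the stepped order and the genes like Gper1 were added after its values were seen. Alternatives were DESeq2 1.42.0, RLE scaling, no filter, limma-trend (limma 3.58.1) on log2 FPKM with pseudocounts of 0.5, 0.1 and 1, only the 6 libraries compared, a replicate block and leaving out each library. The procedure was tested on simulated data. Sequences came from RefSeq GRCm38.p6. Figures were drawn with matplotlib 3.10.9 in Python 3.11.15.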

Additional observations from a re-analysis of the deposited data

How the results depend on the processing

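The log2 fold change of Gper1 for Trp against HFD ran from -5.46 to -4.37 over the 14 alternatives it could be fitted in, and over those that leave out 1 library. For IPA against HFD it ran from -1.43 to -1.15, with a call under DESeq2 alone (-1.30). For Trp against IPA it ran from -4.17 to -3.08, with calls under DESeq2 (-3.75) and with no filter (-3.67). As Gper1 was chosen with its values known, these ranges show the effect of the settings only. Gper1, Esr1 and Esrrb had no FPKM alternative, being under the FPKM minimum.

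The counts of genes called over all genes moved more. For Trp against HFD, 64 became 97 with no filter, 23 with the replicate block, 8 with the 6 libraries alone and 309 with DESeq2, and leaving out 1 library gave 13 to 323, the highest without HFD 3. For IPA against HFD, 1 became 6, 0, 2 and 168 in the same order, and 0 to 52, the highest without HFD 3. For Trp against IPA, 0 became 3 with no filter, 15 with DESeq2 and 2 with each FPKM pseudocount, and 0 or 1 with 1 library left out. The cause was not tested. Same-numbered libraries did not deviate together (correlations of -0.196 to 0.0479, against -0.145 to 0.256 for other pairs between groups). Whether the numbers pair the mice cannot be told from 3 libraries a group.

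None of the other 4 receptors fitted passed under any alternative run. Signs near 0 turned. Esrra reached 0.04 for Trp against HFD and 0.08 for Trp against IPA on log2 FPKM, and 0.00 for Trp against IPA with no filter. With 1 library left out, Esrra ran from -0.11 to 0.04 for Trp against HFD, -0.08 to 0.05 for IPA against HFD and -0.08 to 0.04 for Trp against IPA. Esr1 ran from -0.42 to 0.10 for IPA against HFD and -0.31 to 0.12 for Trp against IPA, and Esrrb from -0.16 to 0.18 for Trp against IPA. The low counts of Esr2 and Cyp19a1 limit what could be detected.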
